A study of Daphnia magna with 84 samples.

Results

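Gene expression was followed with age in whole water fleas (Daphnia magna) kept at the highest coal ash concentration of the study. The libraries were chosen by their labels, which give a concentration of 4 nM Hg/L, and they number 12 of 84, with 3 animals on each of days 6, 10, 17 and 24. Each library came from 1 whole animal. The animals ate the green alga C. reinhardtii, which was held in the coal ash mixture before it was fed to them. A concentration is named by its mercury content but stands for all constituents of the ash, and even the animals at concentration 0 carry the treatment label "coal ash". Days 10, 17 and 24 were each compared with day 6, and those changes were then set beside the same changes in 60 animals at 1, 0.25, 0.12, 0.06 and 0.015 nM Hg/L (3 per concentration and day) and in 9 animals at concentration 0 on days 6, 10 and 17. Of the lower exposed libraries, 1 that is labelled 0.06 nM Hg/L on day 24 has a title number among those of 0.12 nM Hg/L, and 1 title number stands on 2 libraries of 0.12 nM Hg/L (days 6 and 24). They were kept as labelled. The clone and sex of the animals, and whether a sampled animal carried embryos, are not given in the labels used here.

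Daphnia are small filter-feeding crustaceans that grow by repeated moults. A juvenile female matures into an adult that carries successive broods of parthenogenetic embryos in a chamber under the carapace, so whole animals of increasing age can differ in tissues as well as in gene activity. Coal ash, the residue of burnt coal, carries metals and metalloids. Yolk precursors, cuticle proteins and metal-binding metallothioneins are the kinds of gene usually followed in such work, but the authors' table names no gene model, and a lookup in the RefSeq gene table (assembly ASM2063170v1.1) found 0 of its IDs. Models appear here by ID and by position on the contigs and scaffolds of the deposited table, and what they encode is not stated. In whole animals, fewer cells of a type and less RNA per cell cannot be told apart.

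Most counts in these libraries lay in a few gene models. The 12 libraries held between 13865954 and 21655244 counts, but 92.6% of them fell on the 5 most abundant models of the series (APZ42_024615, APZ42_004030, APZ42_003886, APZ42_024616 and APZ42_003885). The other models together had 760586, 465099 and 1940755 counts in the day 6 animals, and between 820582 and 2005069 in the 9 older ones. Their share of all counts averaged 5.12 ± 3.94% on day 6, 7.84 ± 3.60% on day 10, 6.95 ± 1.06% on day 17 and 10.1 ± 1.44% on day 24 (SD, n = 3 each). The day 24 mean was 4.98 percentage points above that of day 6, which is more than the SD of either day, though the animals overlapped. An exact permutation test (two-sided) gave p = 0.5, 0.5 and 0.2 for days 10, 17 and 24 against day 6, but 3 animals against 3 cannot go below 0.1, so this test could not have passed 0.05. Values below are CPM, counts scaled to a common library size, after scaling by the trimmed mean of M-values (TMM), and the TMM factors of the day 6 animals were 0.258, 0.123 and 1.65, against 0.558 to 2.0 on later days. The scaling therefore weighs in every comparison with day 6, and the counts of models called on each later day against day 6 and in the joint test are also given with a plain scaling, in which the counts outside those 5 models served as library size.

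The day 6 animals stood apart from all older animals. On the first principal component, which held 42.1% of the variance of 1727 models with a mean of at least 5 CPM, they lay at -40.3, -42.0 and -33.4, while the 9 older animals spread from -8.87 to 28.3. Day 10 overlapped with days 17 and 24 on this axis, while day 24 lay above day 17 in every animal. On the second component, with 24.8% of the variance, day 24 replicate 1 lay at -50.9 and day 17 replicate 1 at -18.8, and the other animals lay between -8.41 and 16.3. The lowest correlation between animals of one day declined over the course. Across these models, Spearman's correlation was 0.727 to 0.897 on day 6, 0.610 to 0.750 on day 10, 0.550 to 0.644 on day 17 and 0.392 to 0.738 on day 24. Between days it had a median of 0.484 for day 10 with day 6, 0.453 for day 17 with day 6 and 0.314 for day 24 with day 6. These correlations run across gene models, not across replicates, and the libraries differ in depth outside the abundant models. The models were chosen by their mean over all these animals. Some can enter through high values in 1 animal alone, which can lower the correlations of its day.

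**Figure D1:**
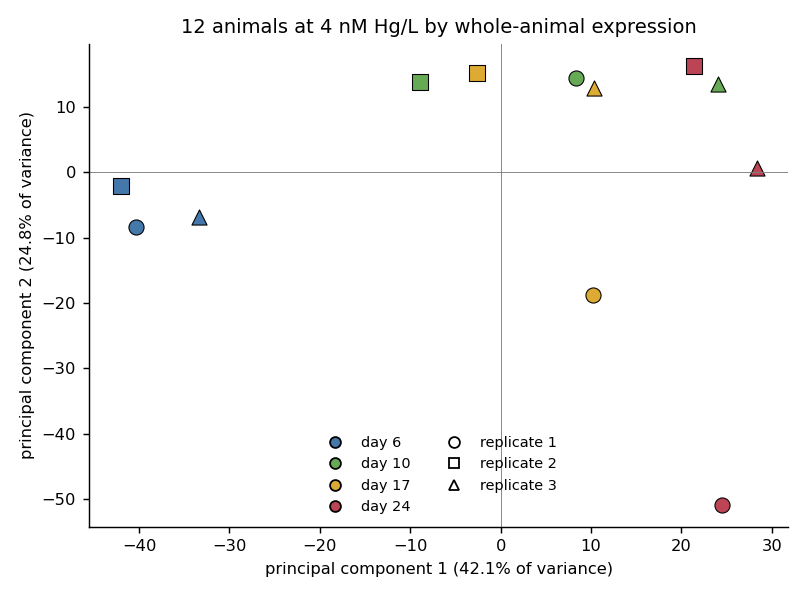
Principal components of log2(CPM + 1) over 1727 gene models in the 12 animals at 4 nM Hg/L, with the first component (42.1% of variance) on the horizontal and the second (24.8%) on the vertical axis. Colours mark days and symbols replicates; the 3 day 6 animals lie at -33.4 or below on the first axis, apart from all older animals, and day 24 replicate 1 lies at -50.9 on the second.

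By day 10 many gene models had changed. Of 12685 models tested, 386 were higher (3.04%) and 313 lower (2.47%) on day 10 than on day 6, or 699 in all (5.51% of those tested, edgeR's quasi-likelihood test, adjusted p below 0.05). The changes were large: the median log2 change was 2.59 among the models that rose and -2.14 among those that fell, beside 0.16 over all models tested, and 41.7% of the rises and 33.5% of the falls were of at least 3 on the log2 scale. How many fell depended on the scaling. With the plain scaling, which moved the median of all models by 0.40, 806 models were higher and 99 lower, so that 89.1% of the calls were higher, against 55.2% with TMM. Other settings moved the split the other way: with limma-voom 36.8% of 1021 calls were higher, and with DESeq2 size factors 49.1% of 705. With the log2 share of counts outside those 5 models as a covariate, 66.5% of 322 were. Of the TMM calls, 378 of the 386 that rose and 99 of the 313 that fell were also made with the plain scaling. Single animals moved the share called too: it was 1.16% without day 6 replicate 1, 1.28% without day 6 replicate 2, 2.72% without day 10 replicate 1 and 0.527% without day 10 replicate 3, against 5.51% with all 12 animals. Among the models that rose, 287 of 386 were highest in day 10 replicate 3, beside 4484 of all 12685 models tested. Among those that fell, 197 of 313 were highest in day 6 replicate 2, beside 3153 of all 12685.

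Of the 2 models named as higher on day 10, APZ42_011275 (scaffold00024, 700541 to 708513, plus strand, 7 exons) rose most among the candidates. It had 0, 1.17 and 0.12 CPM in the day 6 animals, 30.7, 7.63 and 95.6 CPM on day 10, 1.32, 12.1 and 31 CPM on day 17 and 1.38, 95.3 and 62.8 CPM on day 24. All day 10 animals were above all day 6 animals, while replicate 1 of days 17 and 24 stayed close to the highest day 6 animal. Models named for a change between 2 days were chosen for no overlap between those days, so that separation follows from the choice. Of all models tested, 22.8%, 22.2% and 30.4% did not overlap between day 6 and days 10, 17 and 24. The values of APZ42_011275 also varied within days. This model averaged 44.7 ± 45.6 CPM on day 10 and 0.431 ± 0.646 CPM on day 6 (SD, n = 3 each), a log2 change of 7.36 (SE 2.0, adjusted p = 0.02, edgeR). The change was called again on day 24 (7.61, SE 2.01, adjusted p = 0.0064, edgeR) but not on day 17 (5.77, SE 1.91, adjusted p = 0.065, edgeR). Only 7 counts lay behind the day 6 values, and the day 10 call was lost under 6 of 23 alternatives, among them leaving out any 1 of the day 6 animals or day 10 replicate 3 (log2 change 6.15 to 8.84 and adjusted p 0.00034 to 0.12 over all 23).

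APZ42_034074 (scaffold03326, 328492 to 340135, plus strand, 5 exons) was the most abundant candidate. Its CPM values were 5.92, 14.9 and 0.511 on day 6, then 153, 401 and 969 on day 10, 191, 268 and 433 on day 17 and 112, 537 and 768 on day 24. Every older animal was above every day 6 animal. It averaged 508 ± 418 CPM on day 10 and 7.10 ± 7.25 CPM on day 6 (SD, n = 3 each), and the log2 change was 6.21 (SE 1.93, adjusted p = 0.045, edgeR). This call was lost under 8 of 23 alternatives, among them leaving out any 1 of the day 6 animals or day 10 replicate 1 or 3 (adjusted p 0.00071 to 0.17 over all 23, with a log2 change of 5.38 to 8.02). The lower exposed animals had a median of 258 CPM on day 10 and 0.976 CPM on day 6 (n = 15 each), and the change at 4 nM Hg/L differed from theirs by -0.61 (SE 1.70, adjusted p = 0.95, edgeR).

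Among models that fell by day 10, APZ42_019722 (scaffold00944, 40559 to 42062, plus strand, 6 exons) changed most. It had 36.2, 104 and 5.26 CPM on day 6, and between 0 and 0.462 CPM in the 9 older animals. Its counts in the 3 day 6 animals differed by at most 1.53-fold, against 19.8-fold for their CPM values, since CPM divides by a TMM-scaled library size. The later animals had between 0 and 9 counts. It averaged 0.0953 ± 0.0864 CPM on day 10 and 48.6 ± 50.8 CPM on day 6 (SD, n = 3 each), a log2 change of -8.75 (SE 1.91, adjusted p = 0.004, edgeR). Of 23 alternatives, leaving out day 10 replicate 3 alone ended the call (adjusted p 5.4e-06 to 0.053). In the 15 day 6 animals at lower exposed concentrations its median was 0.264 CPM and its highest value 7.90 CPM, below 2 of the 3 animals at 4 nM Hg/L. The change by day 10 differed from theirs by -9.08 (SE 1.98, adjusted p = 0.012, edgeR).

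APZ42_030553 (scaffold02850, 486581 to 489994, minus strand, 4 exons), the most abundant candidate that fell, changed less. It had 405, 411 and 237 CPM on day 6, then 119.7, 202.9 and 145.3 CPM on day 10, 146, 144 and 133 CPM on day 17 and 158.2, 106.7 and 200.8 CPM on day 24. Every older animal was below every day 6 animal, and the 3 later days overlapped. It averaged 155.9 ± 42.6 CPM on day 10 and 351 ± 98.7 CPM on day 6 (SD, n = 3 each), a log2 change of -1.17 (SE 0.35, adjusted p = 0.036, edgeR), which was -0.49 with the plain scaling. The call was lost there and under 8 of 23 alternatives in all, among them leaving out day 6 replicate 1 or 2 or day 10 replicate 1 or 3 (adjusted p 0.0019 to 0.29 over all 23).

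On day 17 a similar number of models differed from day 6. There were 256 higher (2.02%) and 277 lower (2.18%), or 533 in all (4.2% of the 12685 tested, edgeR, adjusted p below 0.05). The median log2 change was 2.19 among those that rose and -2.20 among those that fell, against 0.14 over all models tested, and 76 rose and 95 fell by at least 3. The split turned with the scaling: 48% of calls were higher with TMM, 38.5% with DESeq2 size factors, and 88.1% with the plain scaling (717 higher and 97 lower, with the median of all models moved by 0.35). With limma-voom 30.8% of 588 calls were higher. Of the TMM calls, 245 of 256 and 97 of 277 were also made with the plain scaling. The share called was 1.48%, 1.25% and 7.43% without day 6 replicate 1, 2 or 3, 2.27% without day 17 replicate 1 and 0.902% without day 17 replicate 3. No model that rose had over 80% of its summed CPM in 1 of the day 17 animals (0 of 256, beside 819 of all 12685).

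APZ42_022522 (scaffold01361, 1120866 to 1122572, minus strand, 7 exons) was high on the middle days. It had 0.359, 0.782 and 0.0903 CPM on day 6, 4.07, 13.9 and 6.35 CPM on day 10, 4.12, 13.5 and 41.5 CPM on day 17 and 0.103, 1.61 and 0.149 CPM on day 24. Days 10 and 17 lay above day 6 in every animal, and day 24 overlapped with day 6. It averaged 19.7 ± 19.4 CPM on day 17 and 0.410 ± 0.349 CPM on day 6 (SD, n = 3 each), a log2 change of 6.06 (SE 1.76, adjusted p = 0.034, edgeR). The change by day 10 was 4.77 (SE 1.70, adjusted p = 0.084, edgeR), and the difference of day 24 from day 17 was -4.92 (SE 1.53, adjusted p = 0.14, edgeR), so neither passed the threshold. The day 17 call was lost under 7 of 23 alternatives, among them leaving out any 1 of the day 6 animals or day 17 replicate 3 (adjusted p 0.0019 to 0.16 over all 23).

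APZ42_007388 (contig45075, 1 to 1327, plus strand, 1 exon) had higher values on each later day. It had 36.6, 24.6 and 12.5 CPM on day 6, 142, 51.2 and 588 CPM on day 10, 850.2, 158.5 and 437.9 CPM on day 17 and 7128, 479.8 and 498 CPM on day 24. Every older animal was above every day 6 animal, and day 24 replicate 1 stood far above the other day 24 animals. It averaged 482 ± 348 CPM on day 17 and 24.6 ± 12 CPM on day 6 (SD, n = 3 each), a log2 change of 4.30 (SE 1.28, adjusted p = 0.04, edgeR), and its change by day 24 was 6.78 (SE 1.43, adjusted p = 0.0008, edgeR). The day 17 call was lost under 11 of 23 alternatives, among them limma-voom, the covariate, no filter and leaving out any 1 of the day 6 animals or day 17 replicate 1 or 3 (adjusted p 0.003 to 0.14 over all 23).

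APZ42_028520 (scaffold02444, 46719 to 50267, plus strand, 8 exons) fell and stayed low. It had 7.53, 43.8 and 1.38 CPM on day 6, from 42, 112 and 46 counts, and between 0 and 0.564 CPM in all 9 older animals. It averaged 0.117 ± 0.145 CPM on day 17 and 17.6 ± 22.9 CPM on day 6 (SD, n = 3 each), with a log2 change of -7.01 (SE 1.41, adjusted p = 0.0013, edgeR). The call was kept under all 23 alternatives, with a log2 change from -8.56 to -5.00 and an adjusted p of at most 0.04. The fall was also called on day 10 (-5.41, SE 1.27, adjusted p = 0.0075, edgeR) and on day 24 (-6.28, SE 1.33, adjusted p = 0.00076, edgeR).

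APZ42_018594 (scaffold00861, 37 to 4205, minus strand, 4 exons) had 515, 885 and 115 CPM on day 6, 36.8, 199 and 58.9 CPM on day 10, 89.2, 86.6 and 97.8 CPM on day 17 and 102, 29.8 and 79.3 CPM on day 24. Day 6 replicate 3 lay little above the day 17 animals. It averaged 91.2 ± 5.86 CPM on day 17 and 505 ± 385 CPM on day 6 (SD, n = 3 each), a log2 change of -2.47 (SE 0.73, adjusted p = 0.04, edgeR), or -1.10 with the plain scaling. The call was lost under 11 of 23 alternatives, among them that scaling, the covariate and leaving out day 6 replicate 1 or 2 or any 1 of the day 17 animals (adjusted p 0.0073 to 0.3 over all 23).

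Day 24 differed most from day 6. Of the 12685 models, 1266 were higher (9.98%) and 913 lower (7.2%), 2179 in all (17.2%, edgeR, adjusted p below 0.05), and 560 rose and 282 fell by at least 3 on the log2 scale. The median log2 change was 2.65 among the models that rose and -2.10 among those that fell, beside 0.17 over all tested. The plain scaling gave 1098 higher and 566 lower, which made 66% of the calls higher, against 58.1% with TMM. With limma-voom most calls were lower instead (44.3% of 1625 were higher), as they were with 5 shallow libraries left out (47% of 1694). Day 6 replicate 2 at 4 nM Hg/L was 1 of those 5 libraries. The plain scaling repeated 987 of the 1266 rises and 564 of the 913 falls. The count was 1136 without day 6 replicate 1, 1231 without day 6 replicate 2 and 1287 without day 24 replicate 1. Many rises rested on 1 animal: for 188 of the 1266 models (14.9%) a single day 24 animal held over 80% of the summed CPM of that day, and in 133 of these it was replicate 1. Over all models tested this was so for 928 (7.32%). The day 10 and day 17 counts above come from the same 3 day 6 animals, so the 3 comparisons are not independent of each other.

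**Figure D2:**
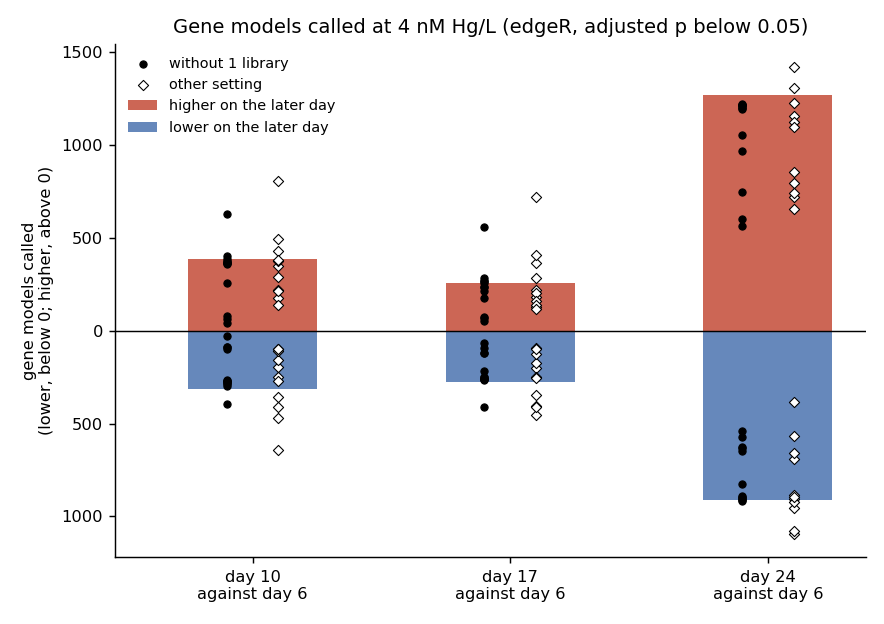
Gene models called higher (above 0) or lower (below 0) on each later day than on day 6 at 4 nM Hg/L (edgeR, adjusted p below 0.05). Bars give the TMM fit of all 84 libraries (386 and 313, 256 and 277, 1266 and 913), black points the counts without 1 of the 12 libraries and open diamonds the counts under other settings, which reach 806 higher on day 10 and 717 on day 17.

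APZ42_023136 (scaffold01409, 330049 to 348997, minus strand, 3 exons) was the candidate that rose most by day 24, and it did so in 1 animal. It had 0, 0 and 0.12 CPM on day 6, 0.176, 0.301 and 0.843 CPM on day 10, 7.54, 0.214 and 0.112 CPM on day 17 and 156.4, 0.403 and 0.97 CPM on day 24. It averaged 52.6 ± 89.9 CPM on day 24 and 0.0401 ± 0.0695 CPM on day 6 (SD, n = 3 each), with a log2 change of 9.25 (SE 2.59, adjusted p = 0.0097, edgeR). Without day 24 replicate 1 the change was 2.96 and was not called. The call was lost without day 6 replicate 1 and with limma-voom as well (adjusted p 0.00011 to 0.48 over 23 alternatives).

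The most abundant candidate that rose, APZ42_004029 (contig22919, 1 to 636, minus strand, 1 exon), changed little but in all animals. It had 4355, 3946 and 2024 CPM on day 6, 3849.9, 9291 and 3688 CPM on day 10, 5592, 5013 and 4887 CPM on day 17 and 7862, 6883 and 10108 CPM on day 24. It averaged 8284 ± 1654 CPM on day 24 and 3442 ± 1245 CPM on day 6 (SD, n = 3 each), a log2 change of 1.27 (SE 0.43, adjusted p = 0.032, edgeR). Day 10 overlapped with both day 6 and day 24. The call was lost under 7 of 23 alternatives, among them limma-voom and leaving out day 6 replicate 2 or 3 or day 24 replicate 1 or 3 (adjusted p 0.0023 to 0.15 over all 23).

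APZ42_027000 (scaffold02142, 4604 to 5475, minus strand, 2 exons) fell most among the candidates. It had 75.7, 59.5 and 14.3 CPM on day 6 (up to 475 counts), 0, 2.21 and 0.393 CPM on day 10, 0.351, 1.43 and 1.12 CPM on day 17 and 0.0513, 0.183 and 0.149 CPM on day 24. It averaged 0.128 ± 0.0686 CPM on day 24 and 49.8 ± 31.8 CPM on day 6 (SD, n = 3 each), a log2 change of -8.52 (SE 1.67, adjusted p = 0.00031, edgeR), and the call was kept under all 23 alternatives (adjusted p of at most 0.0062). It was lower on day 10 (-5.93, SE 1.47, adjusted p = 0.011, edgeR) and on day 17 (-5.67, SE 1.44, adjusted p = 0.014, edgeR) too. The lower exposed animals had medians of 0.546 CPM on day 24 and 9.32 CPM on day 6 (n = 15 each), and the change at 4 nM Hg/L differed from theirs by -5.84 (SE 1.58, adjusted p = 0.028, edgeR).

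APZ42_024143 (scaffold01581, 1915327 to 1937603, plus strand, 25 exons) was the most abundant candidate that fell. It had 1695, 2098 and 1009 CPM on day 6, 371, 977 and 546 CPM on day 10, 649, 588 and 944 CPM on day 17 and 557, 366 and 625 CPM on day 24. It averaged 516 ± 134 CPM on day 24 and 1601 ± 551 CPM on day 6 (SD, n = 3 each), a log2 change of -1.63 (SE 0.54, adjusted p = 0.029, edgeR). No older animal reached the lowest day 6 animal, but the changes by day 10 (-1.34, SE 0.54, adjusted p = 0.13, edgeR) and day 17 (-1.14, SE 0.53, adjusted p = 0.21, edgeR) were not called. The day 24 call was lost under 8 of 23 alternatives, among them the covariate and leaving out day 6 replicate 1 or 2 or any 1 of the day 24 animals (adjusted p 0.0091 to 0.24 over all 23).

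**Figure D3:**
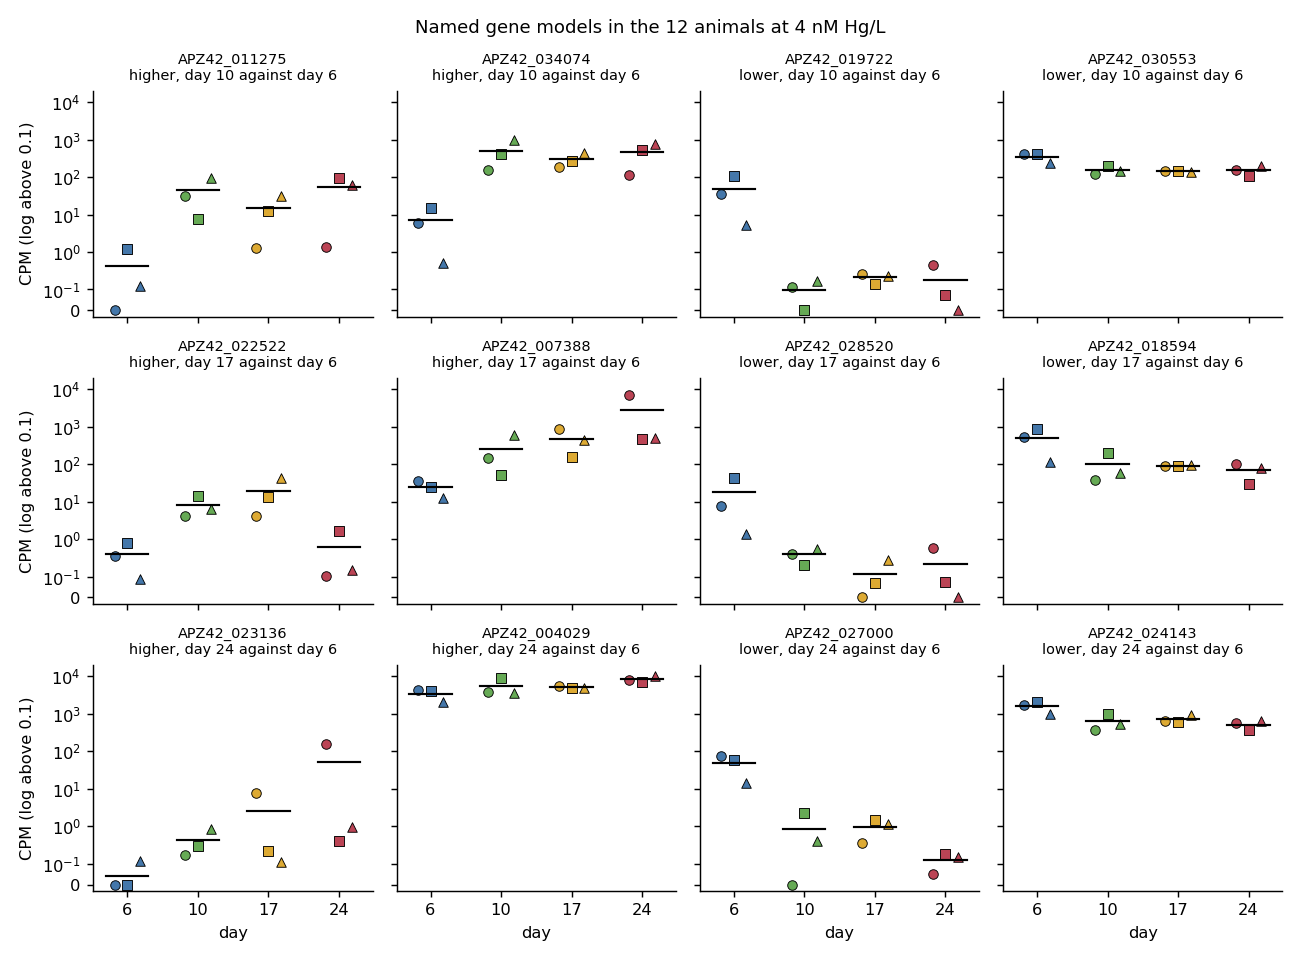
CPM of the 12 named gene models in each animal at 4 nM Hg/L by day, on a scale that is logarithmic above 0.1. Circles, squares and triangles are replicates 1, 2 and 3 and bars the day means; APZ42_019722, APZ42_028520 and APZ42_027000 stayed at or below 2.21 CPM in every older animal, and the day 24 mean of APZ42_023136 rests on replicate 1 with 156.4 CPM.

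No model passed the same test between later days. Day 17 against day 10 gave 0 models (0%; 420 at an unadjusted p below 0.05 in edgeR, 7 called by DESeq2 and 0 by limma-voom). Day 24 against day 17 gave 0 models as well (0%), although 1543 had an unadjusted p below 0.05 in edgeR, and DESeq2 called 176 and limma-voom 0. In that comparison edgeR called 3 models without day 6 replicate 2, 2 without day 10 replicate 2, 3 without day 10 replicate 3 and 1 without day 24 replicate 1. Day 24 against day 10, a contrast added after these results were seen, gave 0 models (0%; 1339 at an unadjusted p below 0.05, 136 by DESeq2 and 1 by limma-voom). A count of 0 does not show that these days are alike. The median SD of log2(CPM + 1) between animals of a day was much the same over the course (0.413 on day 6, 0.367 on day 10, 0.397 on day 17 and 0.415 on day 24, over 1727 models), while the upper end of the spread was higher on later days. The SD of log2(CPM + 1) between animals of a day, at the 90th percentile of these models, was 0.973 on day 6, 1.06 on day 10, 1.37 on day 17 and 1.68 on day 24.

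The joint test over the 4 days described the shape of the course. It called 1482 models (11.7% of those tested, edgeR, adjusted p below 0.05), and it was 775 without day 6 replicate 1, 798 without day 6 replicate 2 and 850 without day 24 replicate 1. The plain scaling gave 1337, of which 1025 were among the 1482, and limma-voom 1047. The covariate described under day 10 left 669. Of the 1482, 42.0% had their highest day mean on day 6 (beside 27% of all models tested), 8.03% on day 10 (beside 18.8%), 10.1% on day 17 (beside 19.3%) and 39.9% on day 24 (beside 34.9%). In TMM-scaled CPM, called models thus peaked mostly at either end of the course, and peaks on the middle days were fewer than among all models. Peak days were not counted with the plain scaling. That scaling kept 99 of the 313 falls on day 10, 97 of 277 on day 17 and 564 of 913 on day 24. How far the peak on day 6 rests on the scaling was not tested. All 3 later means were above day 6 in 664 called models (44.8%, beside 45.0% of all tested) and below it in 623 (42.0%, beside 27%). The mean was higher on each next day in 230 (15.5%, beside 10.9%) and lower on each next day in 265 (17.9%, beside 7.13%).

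The median levels give the size of these courses. Models highest on day 6 had a median of 7.09 CPM on that day, then 1.96, 1.92 and 1.2 CPM on days 10, 17 and 24, so that most of the fall lay between days 6 and 10. Models highest on day 24 had 0.641 CPM on day 6, 2.27 and 2.46 CPM on days 10 and 17 and 6.39 CPM on day 24, in steps at either end with little between days 10 and 17. Those highest on day 10 had 0.350, 3.86, 2.14 and 2.60 CPM over the 4 days. Those highest on day 17 had 0.501, 0.892, 2.25 and 0.261 CPM. The models were grouped by the day of their highest mean, so lower levels on the other days follow from the grouping. These medians describe the groups and are no test of a step, and no model was called between later days.

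**Figure D4:**
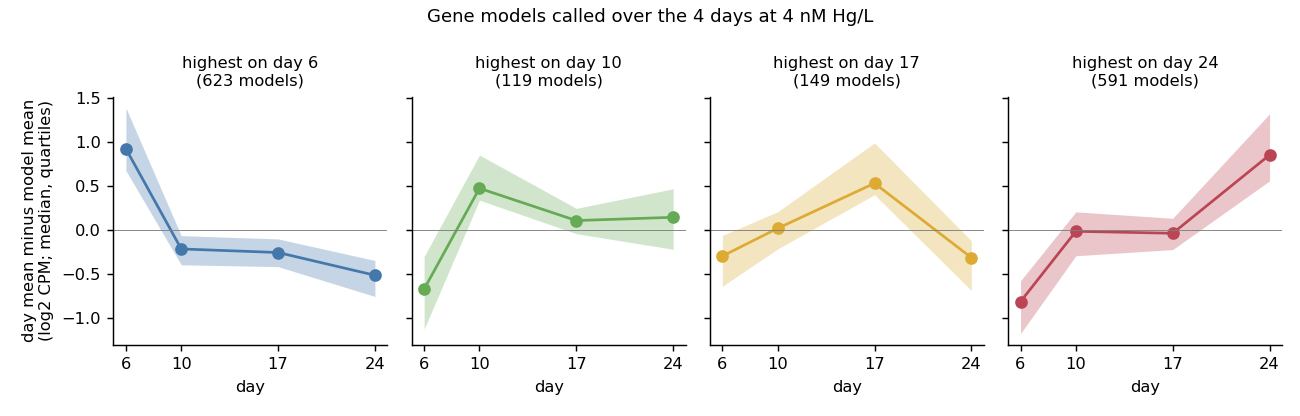
Courses of the 1482 gene models called over the 4 days at 4 nM Hg/L, grouped by the day of the highest mean (42.0%, 8.03%, 10.1% and 39.9% of them). Lines are medians and bands quartiles of the day mean minus the model's own mean, in log2(CPM + 1), against day. Models highest on day 6 lie lower by day 10, and models highest on day 24 lie higher by day 10 and again after day 17. The peak on the grouping day follows from the grouping, and the day means are of TMM-scaled CPM.

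Some models were all but absent at one end of the course. Models with at most 3 counts summed over the day 6 animals but a mean of at least 5 CPM later numbered 23 on day 10, 15 on day 17 and 63 on day 24, of which 19, 2 and 59 were called higher. The reverse, at least 5 CPM on day 6 and at most 3 counts later, was seen in 5, 2 and 8 models, and all of these were called lower. Both sets were chosen by the values of the days compared, so the direction of these calls follows from the choice and is no separate result. Over all models tested, 3.04%, 2.02% and 9.98% were called higher and 2.47%, 2.18% and 7.2% lower on days 10, 17 and 24. A count near 0 limits what was detectable at this depth and does not show that a transcript was absent.

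Because single animals and the scaling carried so many calls, the models kept with the same sign under all 23 alternatives were also counted. On day 10 they were 22 of the 386 that rose and 20 of the 313 that fell, and on day 17 they were 25 of 256 and 32 of 277. On day 24 they were 239 of 1266 (18.9%) and 182 of 913 (19.9%). The 239 rises had a median log2 change of 2.69, with medians of 7.42 CPM on day 24 and 1.22 CPM on day 6. The 182 falls had a median of -2.43, with 1.81 CPM on day 24 and 10.8 CPM on day 6. The kept day 10 falls were deeper, at a median of -3.35 (0.522 CPM on day 10 and 12.1 CPM on day 6), and the kept day 10 rises had a median of 3.14 (7.96 and 1.14 CPM on these days).

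The same changes with age were examined in animals that shared no library with these. Of the models that rose at 4 nM Hg/L, 366 of 386 on day 10, 231 of 256 on day 17 and 1137 of 1266 on day 24 had the same sign in the mean of the 5 lower exposed concentrations (94.8%, 90.2% and 89.8%, beside 50.5%, 53.3% and 45.1% of all models tested). Of those that fell, 244 of 313, 238 of 277 and 754 of 913 had it (78.0%, 85.9% and 82.6%, beside 49.5%, 46.7% and 54.9%). The changes were smaller there. The median log2 change of the rises was 2.59 at 4 nM Hg/L and 1.15 at lower exposure on day 10, 2.19 and 0.59 on day 17 and 2.65 and 1.02 on day 24. For the falls these pairs were -2.14 and -0.50, -2.20 and -0.66, and -2.10 and -0.61. The models were picked for being called at 4 nM Hg/L, so their median there is larger by that choice, and a smaller one elsewhere is no test of a difference. Of the rises, 311, 142 and 809 were also called in the lower exposed animals on days 10, 17 and 24 (80.6%, 55.5% and 63.9% of the calls at 4 nM Hg/L, and 11.5%, 8.70% and 41.2% of those at lower exposure). Of all models tested, 21.3%, 12.9% and 15.5% were called higher there on these days. Of the falls, 46.3%, 49.8% and 48.8% were also called there, beside 16.8%, 13.3% and 15.5% of all models tested. The shared falls were 6.79%, 8.21% and 22.7% of the falls at lower exposure.

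At concentration 0 most of these changes had the same sign, but few were called. On day 10, 340 of the 386 rises (88.1%, beside 53.4% of all tested) and 202 of the 313 falls (64.5%, beside 46.6%) had the same sign at concentration 0. On day 17 these were 232 of 256 (90.6%, beside 51.5%) and 201 of 277 (72.6%, beside 48.4%). Of the day 10 calls at 4 nM Hg/L, 39 rises (10.1%, beside 2.07% of all tested) and 31 falls (9.90%, beside 1.61%) were also called at concentration 0. Of the day 17 calls, 14 rises (5.47%, beside 0.489%) and 19 falls (6.86%, beside 0.702%) were. Those shared calls were 14.9% of the rises and 15.2% of the falls called there on day 10, and 22.6% and 21.3% on day 17. Each day had 3 animals at concentration 0 and 15 at lower exposure, so the numbers called in them are not compared. The day 24 animals of concentration 0 were not used in a comparison, because earlier results had shown their libraries to be shallow.

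A difference between the course at 4 nM Hg/L and that of other animals was tested directly, as the change since day 6 at 4 nM Hg/L minus the same change elsewhere. Against concentration 0, day 10 gave 30 models (0.236%), 8 with a positive (0.0631%) and 22 with a negative difference (0.173%), and day 17 gave 0 (0%; 1000 at an unadjusted p below 0.05 in edgeR, 32 called by DESeq2 and 40 by limma-voom). Without 1 library the day 17 count was 1 (day 6 replicate 2 at 4 nM Hg/L), 268 (day 6 replicate 3) or 2 (day 17 replicate 2). The day 10 count was 1, 1 and 472 without day 6 replicate 1, 2 or 3 at 4 nM Hg/L, and 2, 70 and 1 without day 10 replicate 1, 2 or 3. It was 13 or 14 without any 1 of the day 17 and 24 libraries at 4 nM Hg/L and 13 without any 1 of those of day 17 at concentration 0. It was 3, 2 and 13 without the day 6 libraries of concentration 0 in turn, and 1 without its day 10 replicate 3. With DESeq2 size factors it was 8 positive and 38 negative, and with the plain scaling 2 and 3. With the covariate it was 0 (827 at an unadjusted p below 0.05 in edgeR), with 5 shallow libraries left out 3, with DESeq2 183 and with limma-voom 500. In 27 of the 30 models the change had the opposite sign at concentration 0, but the models were picked for a large difference. Opposite signs are favoured by that choice, so this count is no test of a reversal.

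Of the 2 positive candidates, APZ42_025850 (scaffold01969, 77716 to 81313, plus strand, 9 exons) had 27.4, 18.6 and 26.7 CPM on day 10 and 19.7, 10.6 and 56.2 CPM on day 6 at 4 nM Hg/L. At concentration 0 it had 13.6, 8.46 and 8.97 CPM on day 10 and 51.2, 79.6 and 58.1 CPM on day 6. It was lower by day 10 in every animal at concentration 0, while the days overlapped at 4 nM Hg/L (log2 difference 2.35, SE 0.55, adjusted p = 0.044, edgeR). APZ42_012948 (scaffold00205, 38776 to 76035, minus strand, 5 exons) had 17.1, 14.4 and 19.9 CPM on day 10 and 11.5, 7.82 and 13.2 CPM on day 6 at 4 nM Hg/L. At concentration 0 it had 11.2, 8.32 and 9.03 CPM on day 10 and 18.0, 20.7 and 16 CPM on day 6, so the days stood in opposite order (1.59, SE 0.33, adjusted p = 0.018, edgeR). Both calls were lost with the plain scaling and without day 6 replicate 1 or 2 or day 10 replicate 1 or 3 at 4 nM Hg/L, and APZ42_025850 lost its call under 22 and APZ42_012948 under 11 of 31 alternatives (adjusted p of at most 0.51 and 0.24).

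Both negative candidates had their highest values in 2 of the day 6 animals at 4 nM Hg/L. APZ42_034121 (scaffold03326, 427585 to 430369, minus strand, 10 exons) had 0.176, 0.301 and 0.225 CPM on day 10 and 25.3, 49.7 and 0.903 CPM on day 6. At concentration 0 it had 1.12, 0 and 3.60 CPM on day 10 and 0, 0.0331 and 0.628 CPM on day 6 (adjusted p of the difference 0.044, edgeR). APZ42_017126 (scaffold00687, 118704 to 121870, plus strand, 8 exons) had 0.85, 1.71 and 0.506 CPM on day 10 and 55.2, 196 and 7.97 CPM on day 6 at 4 nM Hg/L. At concentration 0 it had 4.24, 0.204 and 15.9 CPM on day 10 and 0.715, 1.23 and 2.19 CPM on day 6 (log2 difference -8.70, SE 1.84, adjusted p = 0.02, edgeR). In day 6 replicate 3 at 4 nM Hg/L there were 30 counts of APZ42_034121, fewer than in the other two, and 265 of APZ42_017126, beside 308 and 500 in the other two. The calls were lost under 22 and 11 of 31 alternatives (adjusted p of at most 0.71 and 0.64), the plain scaling and leaving out day 6 replicate 1 or 2 at 4 nM Hg/L among them.

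Against the mean of the 5 lower exposed concentrations, differences were called for 79 models on day 10 (0.623%; 15 positive, 0.118%, and 64 negative, 0.505%), 67 on day 17 (0.528%; 20 positive, 0.158%, and 47 negative, 0.371%) and 351 on day 24 (2.77%; 136 positive, 1.07%, and 215 negative, 1.69%). These differences leaned on the scaling and on the day 6 animals. The plain scaling gave 32, 5 and 102, and DESeq2 size factors in edgeR gave 10 positive and 70 negative on day 17 and 77 and 262 on day 24. With the share of counts outside the 5 most abundant models as a covariate the counts were 0, 4 and 2 (751 at an unadjusted p below 0.05 in edgeR on day 10), and with 5 shallow libraries left out they were 1, 6 and 74. Limma-voom called more, at 5.53%, 1.14% and 6.03% of models on days 10, 17 and 24. Leaving 0.12 nM Hg/L out of the mean gave 120 models on day 24, and leaving 0.06 nM Hg/L out gave 208 on day 17. The share called on day 10 was 0.191%, 0.0535% and 6.46% without day 6 replicate 1, 2 or 3, and 0%, 0.94% and 0.0153% without day 10 replicate 1, 2 or 3. On day 17 it was 0.0306%, 0.0382% and 4.47% without the day 6 animals in turn, and 0.138%, 0.145% and 0% without those of day 17. On day 24 it was 0.818%, 0.0841% and 10.7% without the day 6 animals in turn, 1.35% without day 24 replicate 1 and 0.887% without day 24 replicate 2. Of the negative differences, day 6 replicate 3, whose TMM factor was 1.65, had the lowest day 6 CPM in 61 of 64 on day 10, 45 of 47 on day 17 and 205 of 215 on day 24, beside 2783 of all 12685 models tested. Of the positive ones it had the highest in 80%, 70% and 81.6%, beside 45.7% of all models tested. The part of the scaling of the day 6 libraries in these differences was not tested further.

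On day 10, APZ42_033050 (scaffold03135, 220850 to 225997, minus strand, 11 exons) had 0.147, 0.10 and 0.0562 CPM on day 10 and 18.3, 19.2 and 0.181 CPM on day 6 at 4 nM Hg/L. The lower exposed animals had a median of 0.747 CPM on day 10 and 0 on day 6, where 9 of 15 were at 0 (adjusted p = 0.0047, edgeR). APZ42_021732 (scaffold01253, 444999 to 446694, plus strand, 4 exons) had 0.205, 0.301 and 0.393 CPM on day 10 and 22.6, 37.6 and 3.28 CPM on day 6, beside medians of 1.32 and 0.126 CPM at lower exposure (log2 difference -7.77, SE 1.66, adjusted p = 0.0085, edgeR). In both, a fall at 4 nM Hg/L stood against a low level at lower exposure on both days. APZ42_033050 lost its call under 4 and APZ42_021732 under 5 of 27 alternatives (adjusted p of at most 0.29 and 0.23). These were the covariate, and leaving out 5 shallow libraries, day 10 replicate 1 or 3 or, for APZ42_021732, day 6 replicate 2. The plain scaling kept both calls. No size is given for APZ42_033050, since 3 of the 10 groups of lower exposed animals held at most 3 counts.

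**Figure D5:**
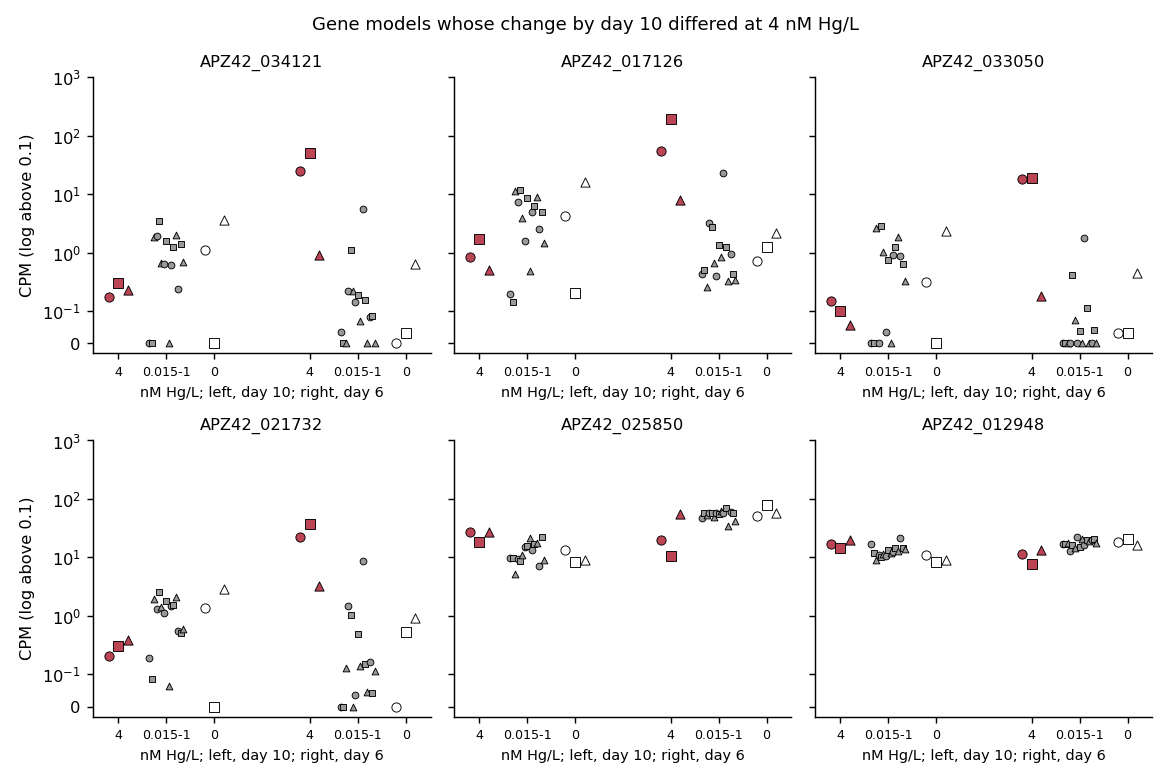
CPM of 6 gene models whose change by day 10 at 4 nM Hg/L differed from that of other animals, for 4 nM Hg/L (red, 3 animals), 0.015 to 1 nM Hg/L (grey, 15) and concentration 0 (white, 3), with day 10 on the left and day 6 on the right of each panel. Circles, squares and triangles are replicates 1, 2 and 3 and the scale is logarithmic above 0.1; in the 4 models with a negative difference 2 of the red day 6 points lie at 18.3 CPM or higher, and triangles (day 6 replicate 3) are the lowest of them.

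On day 17, positive differences included APZ42_017381 (scaffold00687, 897525 to 899271, plus strand, 4 exons), which had 12.6, 4.35 and 38.1 CPM on day 17 and 0.717, 0 and 1.23 CPM on day 6. At lower exposure its medians were 0.132 CPM on day 17 and 7.32 CPM on day 6 (adjusted p = 0.047, edgeR; no size is given, since 1 of the 10 groups held at most 3 counts). APZ42_030256 (scaffold02794, 25069 to 40445, minus strand, 13 exons) had 7.98, 5.07 and 22.4 CPM on day 17 and 1.97, 2.74 and 3.34 CPM on day 6, beside medians of 2.60 and 3.76 CPM (log2 difference 2.41, SE 0.61, adjusted p = 0.041, edgeR). Both were higher in every day 17 animal than in every day 6 animal at 4 nM Hg/L, and the medians of the other animals ran the other way. Negative differences included APZ42_028669 (scaffold02452, 540691 to 543145, plus strand, 6 exons), with 0.263, 0.428 and 0.168 CPM on day 17 and 24.6, 14.5 and 4.45 CPM on day 6, beside medians of 0.945 and 0.530 CPM (-7.43, SE 1.83, adjusted p = 0.041, edgeR). APZ42_023946 (scaffold01581, 1195654 to 1197544, plus strand, 8 exons) had 0.0877, 0.428 and 0.28 CPM on day 17 and 31.4, 23.9 and 4.18 CPM on day 6, beside medians of 0.529 and 0.555 CPM (-6.75, SE 1.64, adjusted p = 0.038, edgeR). All 4 calls were lost with the plain scaling, without day 6 replicate 1 or 2 and without day 17 replicate 1 or 3, in 12 to 18 of 27 alternatives each (adjusted p of at most 0.46).

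On day 24, APZ42_004454 (contig24896, 1 to 427, plus strand, 1 exon) had 1.33, 28.1 and 16.6 CPM on day 24 and 14.7, 12.1 and 35.0 CPM on day 6, so its days overlapped. The lower exposed animals had medians of 5.16 CPM on day 24 and 97.4 CPM on day 6, and the difference was positive (3.30, SE 0.98, adjusted p = 0.049, edgeR). APZ42_022143 (scaffold01348, 780955 to 788453, minus strand, 13 exons) had 18.8, 9.42 and 2.31 CPM on day 24 and 0.359, 0.782 and 0.782 CPM on day 6, beside medians of 2.32 and 1.23 CPM (2.88, SE 0.77, adjusted p = 0.026, edgeR). Of the 2 negative ones, APZ42_026095 (scaffold02019, 97732 to 99945, minus strand, 11 exons) had 0.513, 0.0367 and 0.0746 CPM on day 24 and 40, 30.9 and 2.62 CPM on day 6, beside medians of 0.400 and 0.232 CPM (adjusted p = 0.034, edgeR; no size is given, since 1 of the 10 groups held at most 3 counts). APZ42_014731 (scaffold00476, 1 to 1262, minus strand, 4 exons) had 0.103, 0 and 0.149 CPM on day 24 and 18.5, 30.5 and 7.85 CPM on day 6, beside medians of 0.433 and 4.07 CPM (-6.63, SE 1.94, adjusted p = 0.044, edgeR). The 4 calls were lost in 8 to 14 of 27 alternatives each (adjusted p of at most 0.67), in every case without day 6 replicate 1 or 2 and without day 24 replicate 2; only APZ42_022143 was kept with the plain scaling.

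Position and structure were described for the changed models. Tested models with 1 exon, of which there were 1459, rose more than they fell: 2.88% rose and 0.96% fell on day 10, 2.88% and 0.548% on day 17 and 9.66% and 4.25% on day 24, beside 3.04% and 2.47%, 2.02% and 2.18%, and 9.98% and 7.20% of all models tested. Their share of falls lay below that of all models on each day, and their share of rises was close to it on days 10 and 24. Their median log2 change was 0.58, 0.47 and 0.56, beside 0.16, 0.14 and 0.17 over all models tested. On contigs, 20 of 1157 models rose (1.73%) and 25 fell (2.16%) on day 10. On day 17, 16 rose (1.38%) and 20 fell (1.73%), and on day 24, 91 rose (7.87%) and 70 fell (6.05%). These shares lay below those of all models tested, given above, on each day and in both directions. Of the 5 tested models with IDs that begin with ENSRNA, 1 fell on day 10 and 1 on day 24, and none rose.

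Runs of at least 5 neighbouring tested models called in the same direction were found on day 24 alone, and there were 3. Scaffold02581, which earlier results on these libraries had picked out, held a falling and a rising run. Of its 191 tested models, 19.9% rose and 7.85% fell on day 24, beside 9.98% and 7.20% of all models tested. On scaffold02581, 5 neighbours between 532193 and 548189 fell, with a median log2 change of -6.55. Their summed level was 4.51, 0.220 and 0.373 CPM on day 24 and 38.4, 18.8 and 53.3 CPM on day 6, without overlap, and 3 to 5 of them were still called when any 1 of these 6 animals was left out. At lower positions on the same scaffold, 6 neighbours between 389597 and 415947 rose (median 7.61). They summed to 614, 5.68 and 26 CPM on day 24 and 1.97, 1.56 and 1.2 CPM on day 6. On scaffold00568, 5 neighbours between 50086 and 85263, all on the plus strand, rose (median 7.39), with 89.9, 0.367 and 2.02 CPM on day 24 and 0.179, 0 and 0.211 CPM on day 6. Both rising runs were high in day 24 replicate 1, and without that animal 0 of the 6 and 0 of the 5 models were called. Without day 6 replicate 1, 2 or 3, calls remained for 2, 2 and 1 of the 6 and for 1, 3 and 1 of the 5. Without day 24 replicate 2 or 3 they remained for 6 and 4 of the 6 and for 5 and 5 of the 5. Day 17 replicate 1 was the highest animal of its day in both rising runs, with 62.9 and 5.96 CPM. Neighbours can share reads if they are near-identical, and this could not be told from the table.

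The 5 most abundant models changed in their shares less than in scaled level. APZ42_024615 (scaffold01685, 306 to 1983, 5 exons) held 19.7% of counts on day 6, 28% on day 10, 30.5% on day 17 and 27.3% on day 24 on average, and APZ42_004030 (contig22920, 446 to 963, 3 exons) held 26.8%, 18.4%, 19.4% and 17.8%. In scaled level all 5 were lower on day 24 than on day 6 (log2 changes of -2.96 to -1.60, adjusted p of at most 0.022, edgeR), 2 of 5 were on day 10 and 3 of 5 on day 17. With the share of counts outside these models as a covariate none of the day 24 falls was called, and 4 of the 5 changes were above 0. All 5 day 24 calls were also lost without day 6 replicate 2, with 5 shallow libraries left out and in a fit of the 12 libraries alone. Day 6 replicate 2 is among the shallow libraries, so the first 2 of these settings are not separate checks. The calls of day 10 and day 17 were lost with the plain scaling. The level of these models and the scaling of the day 6 libraries cannot be told apart.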

How the data were processed

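RNA of 84 single animals was sequenced in 28 groups of 3, of which the 12 libraries at 4 nM Hg/L are described here. The groups come from the concentration and day in the labels. Replicates are numbered in accession order, which pairs no animals. Per the labels' protocols, ribosomal RNA was depleted and a kit that marks strand was used, and per the submitters' processing notes reads were aligned with STAR 2.7.5b. How counts were made (tool, strand setting, build, annotation) is not given in the sources used here, so overlapping, antisense and near-identical models can share counts. The authors deposited 1 table of whole-number counts (not normalized) of each gene model in each library, with exon positions in its header columns. It holds 27350 models.

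The counts were tested in R 4.3.3 with edgeR 4.0.16. The filter filterByExpr at a minimum count of 10 left 12685 models, which were scaled by TMM. Group means were fitted to all 84 libraries with glmQLFit (robust, 56 residual degrees of freedom). Contrasts were tested with glmQLFTest, given Benjamini-Hochberg adjusted p-values over the whole table and called below 0.05. SE values were derived from the log2 change and its F statistic. CPM divides counts by the TMM-scaled library size. Nothing in the labels says that the animals came from separate cultures, so p-values rest on the spread between single animals of a group. That spread was estimated from all 84 libraries, not from the animals compared alone.

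Named models are called, average at least 5 CPM, have more than 3 counts in each group compared at 4 nM Hg/L, are outside the 5 most abundant models and, in contrasts between 2 days, do not overlap between the days. Per direction these are the model with the largest log2 change and, among those that changed by at least 1, the most abundant. For differences between animals they are the 2 largest in each direction, and 1 day 10 contrast had no positive candidate. The members, lists and alternatives were chosen with earlier results of these data known. Day 24 against day 10 and the plain scaling were added after the present values were seen. No planned set of genes by function could be formed, and 0 columns of values were left unused.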

Additional observations from a re-analysis of the deposited data

Results flagged for a closer look

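By a test of the difference itself (edgeR), the course at 4 nM Hg/L differed from that at concentration 0 in 30 models on day 10 (0.236% of those tested). Against the mean of the 5 lower exposed concentrations it differed in 79, 67 and 351 models on days 10, 17 and 24 (0.623%, 0.528% and 2.77%). With the log2 share of counts outside the 5 most abundant models as a covariate, these counts were 0, 0, 4 and 2. Without 1 library, the count against concentration 0 ran from 1 to 472. Against lower exposure it ran from 0 to 844 on day 10 and from 0 to 584 on day 17. The values of the named models by animal stand in the report, with the libraries that decide them. The named models had adjusted p-values, in edgeR's test of the difference, of 0.044 for APZ42_025850, 0.018 for APZ42_012948, 0.044 for APZ42_034121 and 0.02 for APZ42_017126 (day 10, against concentration 0). Against lower exposure they were 0.0047 for APZ42_033050 and 0.0085 for APZ42_021732 on day 10. On day 17 they were 0.047 for APZ42_017381, 0.041 for APZ42_030256, 0.041 for APZ42_028669 and 0.038 for APZ42_023946. On day 24 they were 0.049 for APZ42_004454, 0.026 for APZ42_022143, 0.034 for APZ42_026095 and 0.044 for APZ42_014731.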

How the results depend on the processing

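The settings are given as the percent of models with an adjusted p that were called (edgeR unless another tool is named), for days 10, 17 and 24 against day 6 in that order where 3 stand together. No filter gave 1.71% and 1.38% on days 10 and 17 (411 and 330 of 23987 models, against 699 and 533 of 12685). DESeq2 1.42.0 gave 7.33% on day 17, 0.0552% for day 17 against day 10 and 1.57% for day 24 against day 17. Leaving out the 3 libraries of concentration 0 on day 24 gave 6.44% on day 17 and 0.0552% for day 24 against day 17. Leaving out 5 shallow libraries (under 500000 counts outside the 5 most abundant models) gave 2.55%, 2.55% and, for day 24 against day 17, 0.0688%. The log2 share of counts outside those models as a covariate gave 2.54%, 2.09% and 8.18%, 5.27% in the joint test and 0.00788% for day 24 against day 17. Fitting the 12 libraries alone gave 2.42%, 2.2% and 14.5%, 5.63% jointly and 0.0311% for day 24 against day 17. The plain scaling gave 6.42% on day 17 and 0.102% for day 24 against day 17. No filter gave 0.00834%, and removal of the 5 models 0.016%, for day 24 against day 17. Without 1 library at 4 nM Hg/L the shares ran from 0.527% to 7.84%, 0.902% to 7.43% and 8.69% to 16.3%, from 5.93% to 11.6% jointly, from 0% to 0% for day 17 against day 10 and from 0% to 0.0229% for day 24 against day 17. For the difference from concentration 0 on day 10 they were 0.363% (DESeq2 size factors), 0.0459% (no filter), 2.22% (DESeq2), 3.94% (limma-voom), 0.102% (older edgeR fit), 0.433% (no concentration 0 on day 24), 0.0229% (no shallow libraries), 0% (covariate, 0 models, with 827 at an unadjusted p below 0.05) and 0.0394% (plain scaling), and 0.00764% to 3.61% without 1 library. On day 17 they were 0.329% (DESeq2), 0.315% (limma-voom), 0.00764% (no shallow libraries) and 0.00788% (plain scaling), and 0% to 2.05% without 1 library. For the difference from lower exposure on day 10 they were 0.2% (no filter), 1.68% (DESeq2), 5.53% (limma-voom), 1.08% (no concentration 0 on day 24), 0.00764% (no shallow libraries), 0% (covariate, 0 models, with 751 at an unadjusted p below 0.05), 0.252% (plain scaling) and 0.236% (0.015 nM Hg/L left out of the mean), and 0% to 6.46% without 1 library. On day 17 they were 0.0667%, 1.29%, 1.14%, 0.993%, 0.0459%, 0.0315% and 0.0394% in the same order up to the plain scaling, with 0.166% by the older fit, 0.134% without 0.015 and 1.64% without 0.06 nM Hg/L, and 0% to 4.47% without 1 library. On day 24 they were 0.713% (no filter), 6.03% (limma-voom), 4.86% (no concentration 0 on day 24), 0.566% (no shallow libraries), 0.0158% (covariate), 0.804% (plain scaling), 0.946% without 0.12 and 5.05% without 1 nM Hg/L, and 0.0841% to 10.7% without 1 library. With the covariate the day 24 change turned its sign for APZ42_024615 (0.00034), APZ42_004030 (0.20), APZ42_024616 (0.18) and APZ42_003885 (0.083); the cause was not tested, nor for the other moves listed here. Other settings run left counts of called models within 1.5 times. No paired analysis was possible because replicate numbers come from accession order and no 2 libraries at 4 nM Hg/L share a title number. Depth outside the 5 models, 465099 to 2005069 counts, limits low models, where a count of 0 is no sign of absence.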
